A study of Mus musculus with 183 samples.

Results

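Atf4 and 9 further genes of the integrated stress response, namely Ddit3, Trib3, Nupr1, Chac1, Atf3, Cebpb, Jdp2, Sesn2 and Vldlr, were followed through a half-life experiment in mouse embryonic stem cells (mESCs). They were picked by name and make up 10 of the 53380 genes in the count table. The choice was made with their mock levels and their loss after actinomycin D in these same libraries known. Their values in those comparisons are therefore a description and carry no p-value. The experiment comprised 47 total RNA libraries from 2 lines. Clone 5F is Skiv2l fl/fl with CreERT2 at Rosa26, and clone 7E is Aven-/- with loxP sites and a 3xFLAG-Avi tag at both copies of Skiv2l and with Cre-ERT2 and, as labelled, BirA-V6 at Rosa26. Each line was sampled without (day 0) and after 4 days (day 4) of 0.1 µM 4-hydroxytamoxifen (4OHT), which activates the recombinase. At each day, cells received the solvent DMSO for 6 hr (mock), or actinomycin D, which blocks transcription, for 120, 240 or 360 min. Each of the 16 groups held 3 technical replicates, except clone 5F at day 0 and 120 min, which held 2. Each genotype is a single clone, so that clone and genotype cannot be told apart, and the tag, BirA and the loss of Aven are shared by all libraries of clone 7E. Values of binding to decay factors came from other mESC lines. In the paper these have Cre-ERT2 and BirA at Rosa26, intact Aven, and a tag on AVEN, MTR4, SKIV2L or XRN1.

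In the integrated stress response, kinases that sense amino acid shortage, unfolded protein in the endoplasmic reticulum, viral RNA or lack of heme phosphorylate the initiation factor eIF2. Most translation then falls, whereas that of Atf4 mRNA rises through upstream open reading frames. ATF4 is a bZIP transcription factor that, with C/EBP family partners, induces genes of amino acid supply, tRNA charging and further stress regulators.

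The libraries were checked against their labels first. Skiv2l lay between 147.4 and 147.9 CPM (counts scaled to a common library total) in the mock libraries of clone 5F at day 0, and between 132.1 and 152.7 CPM in those labelled day 4 (log2 fold change -0.01, SE 0.05). The gene count includes exons outside the floxed part, and it gave no sign of recombination in clone 5F, whose libraries are called "labelled day 4" below. In clone 7E, Skiv2l was already below its level in clone 5F at day 0 (log2 fold change -2.10, SE 0.06). From day 0 to day 4 it fell there from between 31.2 and 36.1 CPM to between 12.3 and 13.8 CPM. Aven was at 32.1 to 36.1 CPM in clone 5F and at 1.30 to 2.99 CPM in clone 7E. All 8 pluripotent cell markers were detected, with Pou5f1 between 661.4 and 996.0 CPM. Of 5 primitive endoderm markers, all were called lower in clone 7E at both days, against 18.1% of all genes at day 0 and 20% at day 4. Their summed level was 79.1 to 107.7 CPM in clone 5F against 11.6 to 16.4 CPM in clone 7E. The part of such other cells in the results below was not tested. ERCC spike-in RNA took 0.275% to 0.320% of the reads in the mock libraries of 3 groups and 0.640% to 0.659% in clone 7E at day 4, so that less cellular RNA was recovered per spike-in there. Fewer cells and less RNA per cell cannot be told apart. The total of gene counts ranged from 24440900 to 34114200 per library.

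A motif of 8 bases, TGATGNAA, which C/EBP and ATF4 dimers are known to bind, was sought in both orientations in the RefSeq promoters of GRCm38.p6, from 250 bases before to 50 bases after each start. All 10 genes matched by symbol. The motif was present in 6 of the 10 genes, in 4.51% of all 27025 genes, and in 3.97% of all 32851 promoters. The following stretches show where it lies, 5′ to 3′ on the strand of the gene, with the match in capitals.
Nupr1 (chr7:126625562-126625591, minus strand, 110 to 103 bases before the start): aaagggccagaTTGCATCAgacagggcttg
Chac1 (chr2:119351038-119351067, plus strand, 193 to 186 bases before the start): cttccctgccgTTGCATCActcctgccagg
Atf3 (chr1:191183425-191183454, minus strand, 110 to 103 bases before the start): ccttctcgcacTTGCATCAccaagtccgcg
Jdp2 (chr12:85599372-85599401, plus strand, 33 to 26 bases before the start): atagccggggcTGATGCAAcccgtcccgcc
Vldlr (chr19:27216809-27216838, plus strand, 200 to 193 bases before the start): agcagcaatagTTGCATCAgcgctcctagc
Trib3 (chr2:152344028-152344057, minus strand, after the start): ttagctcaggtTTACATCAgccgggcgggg
The match lay in the reverse orientation, as TTGCATCA or TTACATCA, in 5 of the 6 genes and in the forward orientation in Jdp2. In the Gencode M21 annotation the stretches of Nupr1 and Vldlr overlap exons of the same gene. That of Trib3 touches an exon only with bases after the match, and the match itself lies upstream of the Gencode gene. Those of Atf3 and Jdp2 lie within the gene outside its exons, and that of Chac1 lies upstream. Jdp2 has 3 promoters in the table and Vldlr 2, of which 1 each held the match. Atf4, Ddit3, Cebpb and Sesn2 held no match in this window. Of the 32 genes of the ATF4 target list below that are in the promoter table, 11 held the motif (34.4%), and the share over all genes was 4.51%. The palindrome TGACGTCA, a cyclic AMP response element, cannot match the same 8 bases as the first motif. It was in 1.79% of all promoters, in 2.03% of all genes and in 0 of the 10 genes.

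Atf4 itself (chromosome 15, 80255184 to 80257541, GRCm38) was among the more abundant mRNAs. In mock libraries of clone 5F it had 129.6, 127.5 and 126.5 CPM at day 0 and 218.8, 224.2 and 217.5 CPM when labelled day 4. The clone 7E libraries had 166.2, 162.4 and 168.5 CPM at day 0 and 436.0, 419.1 and 376.2 CPM at day 4. The groups did not overlap, and the order was clone 5F day 0, clone 7E day 0, clone 5F labelled day 4, clone 7E day 4. The log2 fold change from day 0 was 0.82 (SE 0.05, 1.76-fold, edgeR quasi-likelihood fit of 3 against 3 libraries) in clone 5F and 1.35 (SE 0.05, 2.55-fold) in clone 7E. Per kb of exon, Atf4 stood first of the 10 genes in each of the 4 groups, with 54.2 CPM per kb at day 0 in clone 5F and 174.1 CPM per kb at day 4 in clone 7E. Sesn2 was second, with 40.0 and 62.0 CPM per kb, and Trib3 came next, with 7.09 and 31.5 CPM per kb.

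Ddit3 and Chac1, which act downstream of ATF4, rose more steeply from a low level. Ddit3 (chromosome 10, 127290774 to 127296288) encodes CHOP, a C/EBP family factor linked to cell death under prolonged stress. It had 2.89, 3.58 and 3.05 CPM in clone 5F at day 0 and 9.06, 7.12 and 8.98 CPM when labelled day 4. The clone 7E values were 2.30, 3.40 and 4.09 CPM at day 0 and 16.4, 13.6 and 14.0 CPM at day 4. The day 0 groups of the clones overlapped, and each day 4 library lay above every day 0 library. The fold change was 2.69 in clone 5F and 4.61 in clone 7E. Ddit3 shares 186 nt of its 1713 exonic nt with other annotated genes, among them the antisense gene Mars, and the deposited counts do not keep the strand.

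Chac1 (chromosome 2, 119351229 to 119354381), an enzyme that degrades glutathione, had the largest fold change of the 10 genes in both clones. It had 2.89, 2.64 and 2.51 CPM in clone 5F at day 0 and 9.37, 7.59 and 9.37 CPM when labelled day 4, a 3.36-fold difference. In clone 7E it went from 2.86, 2.65 and 3.84 CPM to 21.5, 21.9 and 20.7 CPM, which is 7.05-fold. As for Ddit3, the day 0 libraries of the clones overlapped and the day 4 libraries of clone 7E stood above all others.

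Trib3 encodes a pseudokinase that binds ATF4 and dampens its activity. It had 14.8, 15.3 and 15.2 CPM in clone 5F at day 0 and 28.9, 28.1 and 30.3 CPM when labelled day 4. Clone 7E libraries had 17.4, 19.9 and 20.1 CPM at day 0 and 67.4, 67.1 and 66.3 CPM at day 4. The 4 groups were apart from each other, with a fold change of 1.98 in clone 5F and 3.59 in clone 7E.

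Atf3, a stress-induced bZIP factor, was the gene whose order between clones changed. At day 0 it was lower in clone 7E, with 3.10, 3.81 and 3.70 CPM against 6.29, 6.77 and 6.21 CPM in clone 5F (log2 fold change -0.83, SE 0.11). At day 4 it was higher in clone 7E, with 23.3, 20.5 and 19.2 CPM against 12.6, 11.6 and 11.5 CPM. The groups did not overlap at either day. The change over 4 days was 1.90-fold in clone 5F and 6.10-fold in clone 7E.

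Of the other 3 transcription regulators, Nupr1, a small stress-induced chromatin protein, had a mean of 3.28 CPM (SD 0.13, n = 3) in clone 5F at day 0 and of 5.53 CPM (SD 0.41) when labelled day 4. In clone 7E its means were 4.55 CPM (SD 0.51) and 13.5 CPM (SD 1.52). Cebpb, a C/EBP factor that can pair with ATF4, rose 1.62-fold in clone 5F and 2.73-fold in clone 7E, and no library of it exceeded 6.00 CPM. Jdp2, a bZIP repressor of AP-1 sites, rose 2.41-fold and 3.48-fold from 0.733 to 1.97 CPM at day 0. Cebpb shares 20.7% and Jdp2 7.68% of the exonic length with an antisense gene.

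Vldlr, a lipoprotein receptor, and Sesn2, an inhibitor of mTORC1 signalling, were followed last. Vldlr went from 1.32, 1.08 and 0.790 CPM to 2.17, 3.21 and 2.98 CPM in clone 5F and from 1.86, 1.46 and 1.37 CPM to 9.41, 10.1 and 8.18 CPM in clone 7E (6.03-fold). Sesn2 had 135.2, 148.3 and 133.7 CPM in clone 5F at day 0 and 151.6, 134.3 and 158.9 CPM when labelled day 4, and these groups overlapped. In clone 7E it went from 159.3, 181.0 and 162.4 CPM to 227.1, 206.5 and 212.6 CPM, which is 1.32-fold.

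**Figure D1:**
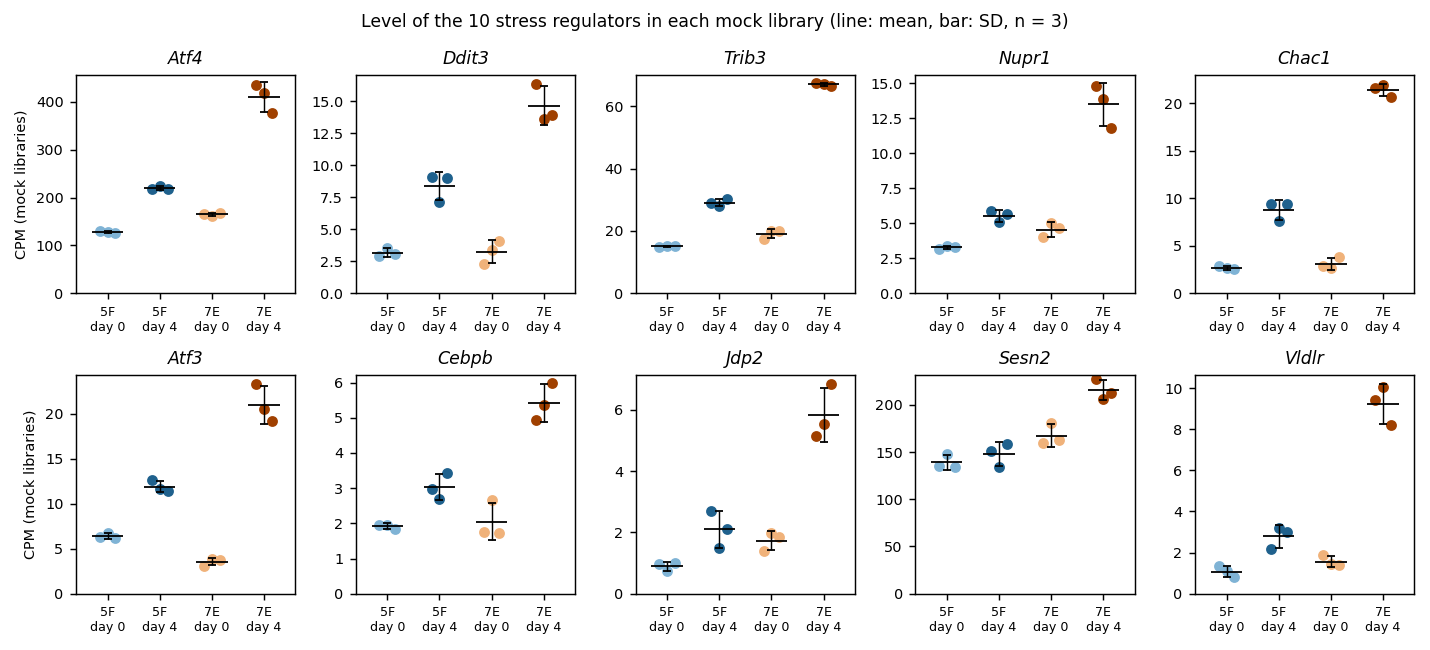
Level of each of the 10 genes in the 12 mock libraries, as CPM on an axis from 0. Points are libraries, lines are group means and bars are SD over 3 libraries. The clone 7E libraries of day 4 stand highest for each gene, with Atf4 between 376.2 and 436.0 CPM.

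In counts of calls at an adjusted p under 0.05 over 17209 genes, 9 of the 10 genes were higher at day 4 in clone 5F, all except Sesn2, and 10 of 10 in clone 7E. Over all genes, 11.9% were called higher and 10.8% lower in clone 5F, and 20.5% higher and 19.4% lower in clone 7E. The genes were chosen on this contrast, so that nothing is read from these counts. Their median log2 fold change was 0.95 in clone 5F (0.13 to 1.75) and 1.82 in clone 7E (0.40 to 2.82), and the median of all genes was within 0.01 of 0 in both. Between clones at day 0, 6 of the 10 were higher in clone 7E and 1, Atf3, was lower, with 18.1% of all genes called higher and 18.1% lower. At day 4, 10 of 10 were higher in clone 7E, with a median of 1.09, and 20.3% of all genes were called higher and 20% lower. These comparisons share their libraries in pairs. In the test of the difference between the clones in the day 4 change, 9 of 10 were called, all except Jdp2 (0.53, SE 0.31), with a larger change in clone 7E. That call was made for 6.65% of all genes upward and for 5.29% downward. With the replicate number as a block within each day, 2130 genes were called upward and 2021 downward, and the calls of the 10 genes did not change. The largest such difference was that of Atf3, at 1.69 (SE 0.14), and the smallest that of Sesn2, at 0.27 (SE 0.08). Without replicate 1, 5 of the 10 differences were called, and between clones at day 0 4 of the 10 were called higher without replicate 2.

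The scaling mattered for the clone 7E libraries of day 4. The values above are relative to the other genes of a library. When each library was scaled to its own spike-ins instead, the median of all genes fell by 1.10 on the log2 scale in clone 7E at day 4, and by 0.07 in clone 5F. On that scale 9 of the 10 genes were called higher at day 4 in clone 7E, and Sesn2 was lower, at -0.70, where 1.57% of all genes were called higher and 87.9% lower. Between clones at day 4, where the median of all genes fell by 1.20, 1 of the 10 was called higher in clone 7E and 4 were called lower, against 0.424% and 92.7% of all genes, and Atf4 was at -0.26. The difference between the clones in the day 4 change then had 1 called higher and 2 called lower, against 0.314% and 83.2% of all genes. Relative to the median gene, the spike-in scaled day 4 changes were 0.40 to 2.82 in clone 7E and 0.13 to 1.75 in clone 5F.

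**Figure D2:**
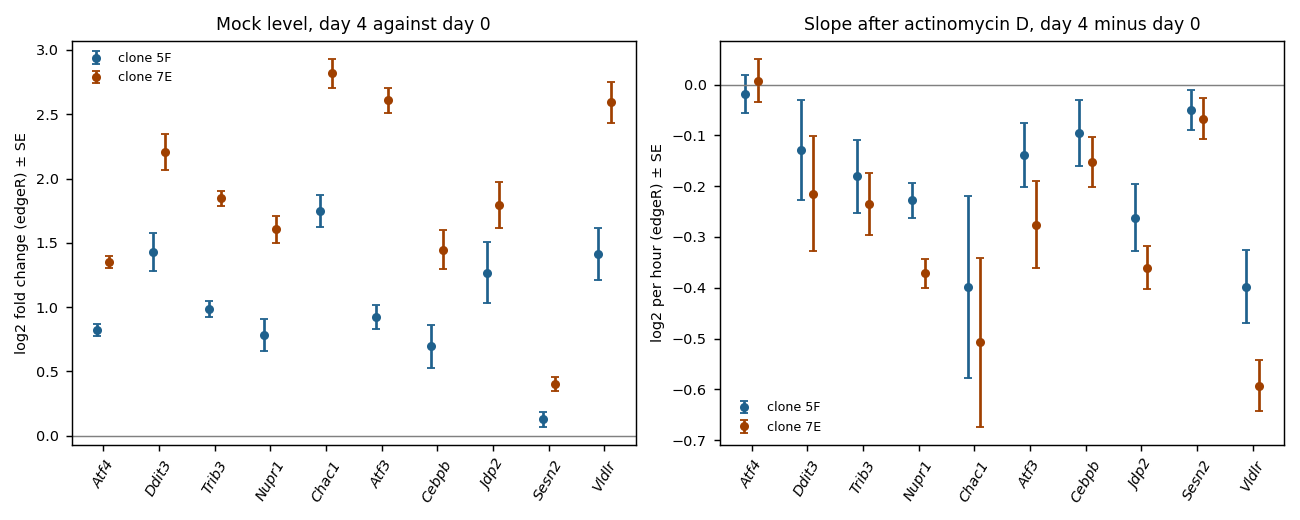
Left, log2 fold change of the mock level from day 0 to day 4 for each gene. Right, the difference in slope after actinomycin D (log2 per hour, day 4 minus day 0). Points are edgeR estimates with SE, blue for clone 5F and brown for clone 7E. Left values run from 0.13 to 2.82, and right values lie at or below 0.01.

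The genes around these regulators were taken from lists that were made with earlier results of these data known. Counts and adjusted p-values for them, here and below, are therefore a description. Over all 17209 genes, 11.9% were called higher and 10.8% lower at day 4 in clone 5F, and 20.5% and 19.4% in clone 7E. Among 41 tested of 42 ATF4 target genes (Fgf21 was too low), 23 were higher and 3 lower in clone 5F, with a median of 0.16, and 35 were higher and 3 lower in clone 7E, with a median of 0.42. All 23 of the first were among the 35. The same 3 genes, Psph, Pycr1 and Slc7a3, were lower in both clones. They were named after their values were seen, and they act in serine and proline synthesis and in transport of basic amino acids. Slc1a4, a transporter of neutral amino acids, went from between 9.54 and 10.7 CPM to between 19.4 and 20.6 CPM in clone 5F (log2 1.00, SE 0.07, edgeR adjusted p = 6.8e-10). In clone 7E it went from between 9.53 and 10.5 CPM to between 34.3 and 34.7 CPM (1.81, SE 0.07, edgeR adjusted p = 1.7e-15). Slc7a1, a transporter of basic amino acids, rose by 0.78 (SE 0.07) and 1.29 (SE 0.07). Stc2, a secreted glycoprotein, rose by 0.69 (SE 0.08) and 1.80 (SE 0.08). By the edgeR test of the difference, the day 4 change was larger in clone 7E for 26 of the 41 and smaller for 0. Over all genes the shares were 6.65% and 5.29%. Without replicate 1 the change was larger for 14 of the 41. Between clones at day 0, 23 were higher and 5 lower in clone 7E, with 18.1% of all genes called each way. The largest with a mean of at least 5 CPM was Sqstm1, an autophagy receptor, at 0.92 (SE 0.05). With each library's own spike-ins the day 4 counts were 18 higher and 4 lower in clone 5F, and 7 higher and 31 lower in clone 7E. Over all 17209 genes these were 1115 and 2735 in clone 5F, and 270 and 15132 in clone 7E.

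Of the 7 genes of eIF2, its kinases and its phosphatase, 2 were higher and 1 lower in clone 5F, and 2 higher and 2 lower in clone 7E. The shares over all genes are given below in this paragraph. Ppp1r15a, the stress-induced subunit that directs dephosphorylation of eIF2, rose by 0.41 (SE 0.05) in each clone, with edgeR adjusted p = 5.3e-06 in clone 5F and 1.2e-06 in clone 7E. Its constitutive counterpart Ppp1r15b rose by 0.12 (SE 0.04) and 0.28 (SE 0.04). Eif2s1, the phosphorylated subunit of eIF2, fell by 0.17 (SE 0.05) in clone 5F, and the kinases Eif2ak1 and Eif2ak4 fell by 0.20 (SE 0.05) and 0.19 (SE 0.05) in clone 7E. In the other arms of the unfolded protein response, 11 of 16 ATF6 and XBP1 genes were lower and 1 was higher in clone 5F, and 8 were lower and 1 higher in clone 7E. Over all genes, 10.8% were lower and 11.9% higher in clone 5F, and 19.4% and 20.5% in clone 7E. Hspa5, the main chaperone of the endoplasmic reticulum, went from 1074 to 1179 CPM at day 0 to 747.6 to 837.2 CPM in clone 5F (-0.47, SE 0.05, edgeR adjusted p = 1.2e-06). In clone 7E it went from 779.2 to 890.2 CPM to 586.3 to 634.3 CPM (-0.41, SE 0.05, edgeR adjusted p = 1.5e-06). Manf, a protein of the same compartment, fell by 0.44 (SE 0.05) in clone 5F and by 0.42 (SE 0.05) in clone 7E. Atf6 itself rose in clone 7E, by 0.44 (SE 0.05).

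In 2 lists of other stress programmes, 3 of 10 immediate early genes were higher and 0 lower in clone 5F, and 7 higher and 0 lower in clone 7E. For these and the marker lists below, the shares over all genes were 11.9% higher and 10.8% lower in clone 5F. In clone 7E they were 20.5% and 19.4%. Jun, an AP-1 subunit, rose by 0.64 (SE 0.08) and 1.36 (SE 0.07), and Dusp1, a MAP kinase phosphatase, by 1.08 (SE 0.07) in clone 7E. Of 10 p53 targets, 3 were higher and 0 lower in clone 5F, and 8 were higher and 1 lower in clone 7E, where Cdkn1a, a cell cycle inhibitor, rose by 1.29 (SE 0.10, edgeR adjusted p = 1.1e-09). Markers of cell state moved beside these lists. In clone 5F, 2 of 8 pluripotent cell markers were higher and 2 lower, and in clone 7E 7 were lower, with Esrrb at -0.51 (SE 0.05). Of 9 markers of other lineages, 5 were higher and 3 lower in clone 7E. Their summed level was 132.0 to 142.3 CPM at day 4 against 100.1 to 104.2 CPM at day 0. The rise of this sum came from Krt8, whose mean went from 31.3 to 84.1 CPM (log2 1.47, SE 0.07). Sox1, at -2.05 (SE 0.13), and Pax6, at -0.32 (SE 0.05), were lower. The means of Thy1, Col1a1, Ptprc and Cdx2 rose at low levels, with Thy1 the highest of them at day 4, at 2.88 CPM. The median log2 fold change of the 9 markers was 0.78. The sum alone therefore does not show how general the gain of other lineages was. Of the 5 primitive endoderm markers, 1 was higher at day 4 in clone 7E, Foxa2, at 1.30 (SE 0.12), and 0 were lower. The part of the cell state markers in the changes of the stress genes was not tested.

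**Figure D3:**
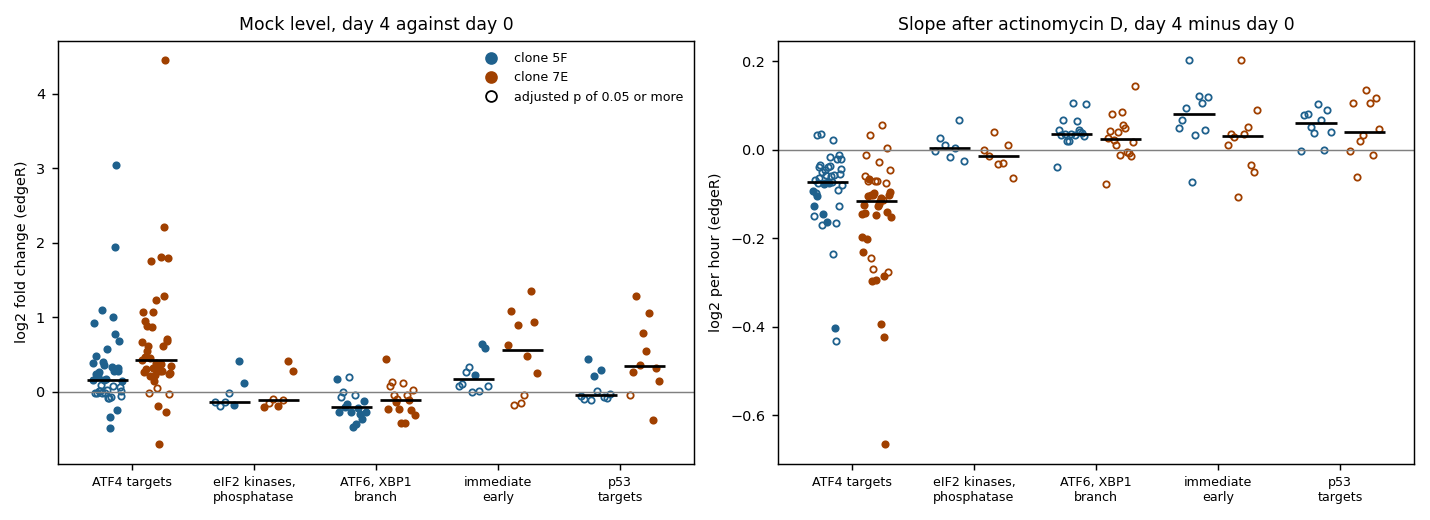
Genes of 5 lists, 1 point per gene, for the mock level (left, log2 fold change, day 4 against day 0) and the slope after actinomycin D (right, log2 per hour, day 4 minus day 0). Filled points passed an edgeR adjusted p under 0.05 and black lines are medians. The ATF4 targets lie mostly above 0 on the left (median 0.42 in clone 7E) and below 0 on the right (median -0.11).

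After actinomycin D, the fitted slope was below 0 for 10 of the 10 mRNAs at day 4 in both clones, and for 8 in clone 5F and 7 in clone 7E at day 0. To follow loss, libraries of a time point were put on one scale by size factors, and time points were then set against each other by their spike-ins. Of Atf4 mRNA, 27.3% of the mock level was left at 120 min and 7.76% (SD 0.92, n = 3) at 360 min in clone 5F at day 0. In clone 7E at day 4, 38.2% (SD 1.20) was left at 120 min and 11.6% (SD 0.33) at 360 min. Scaled to each library's own spike-ins, these 2 shares were 45.1% and 12.8%. The median gene kept 57.5% at 120 min and 39.1% at 360 min in the first group and 57.1% and 38.4% in the second. Atf4 half-lives, from a line through ln(normalized count + 1) over time, were 99.2 min (93.4 to 105.7 at 1 SE of the slope) in clone 5F at day 0 and 96.0 min (92.7 to 99.5) when labelled day 4. They were 118.7 min (109.2 to 129.9) and 119.7 min (114.8 to 125.1) in clone 7E. At 1 SE, the intervals of the 2 days overlapped within each clone and those of the clones did not. Compared directly at day 0, the Atf4 slopes of the clones differed by 0.10 log2 per hour (SE 0.05), which was not called. The Atf4 rate of loss stood at percentiles 92.2 to 96.9 among 18217 genes over the 4 groups.

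By the line through all times, Chac1 had the shortest half-life of the 10 at day 4, at 74.3 min (64.6 to 87.4) in clone 5F and 71.3 min (63.2 to 81.9) in clone 7E. Already at 120 min, only 6.29% to 8.51% of it was left over the 4 groups, so that this line understates its early loss. At day 0 Chac1 did not keep falling. In clone 5F its normalized counts were 81.5, 74.0 and 71.5 in the mock libraries, 2.97 and 6.55 at 120 min, 1.22, 3.79 and 2.36 at 240 min, and 13.2, 9.32 and 9.83 at 360 min. The 360 min libraries were therefore above each library of 120 and 240 min. Clone 7E had 3.86, 3.11 and 6.29 at 240 min and 21.2, 15.7 and 18.5 at 360 min. At day 4 it was at 2.79% (SD 0.67) and 2.28% (SD 0.41) of the mock level at 360 min, below its share at 240 min of 3.47% and 4.71%. At 240 min and day 0 these values rest on raw counts of 2 to 12 per library.

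Ddit3 was also higher at 360 min than at 240 min at day 0, though not than each library of 120 min. Its normalized counts in clone 5F were 15.2, 16.8 and 16.5 at 240 min and 17.8, 22.2 and 17.4 at 360 min, and in clone 7E 9.38, 21.3 and 13.6 at 240 min and 26.4, 24.2 and 35.3 at 360 min. In clone 7E, Atf3 went from 11.6, 9.85 and 9.95 at 240 min to 12.1, 18.3 and 14.1 at 360 min, whereas in clone 5F it kept falling. In counts, every 360 min library was above every 240 min library for Chac1 and Ddit3 in clone 5F at day 0, which held for 1.81% of all genes. In clone 7E at day 0 this held for 4 of the 10, Atf3, Chac1, Ddit3 and Nupr1, and for 1.61% of all genes. At day 4 it held for 0 of the 10 in either clone, and for 1.33% of all genes in clone 5F and 1.13% in clone 7E. The loss after actinomycin D belonged to the rule by which the genes were chosen, and nothing is read from these counts. With each library's own spike-ins, this order was found for Chac1 in clone 5F (0.972% of all genes) and for Chac1 and Ddit3 in clone 7E (0.56%).

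Nupr1 rose after actinomycin D at day 0. In clone 5F at day 0 its normalized counts were 88.5, 95.4 and 94.0 in mock libraries, 124.2 and 133.2 at 120 min, 187.2, 173.3 and 130.3 at 240 min, and 168.5, 180.1 and 183.7 at 360 min. In clone 7E at day 0 they were 115.1, 143.6 and 134.7 in mock libraries and 322.4, 284.5 and 289.9 at 360 min. Each 360 min library was thus above each mock library, and the mean was at 191.5% of the mock level in clone 5F and at 227.9% in clone 7E. At day 4 Nupr1 fell instead, to 77.0% (SD 10.3) of the mock level at 360 min in clone 5F and to 49.6% (SD 4.17) in clone 7E. Vldlr was alike, with 146.1% (SD 21.3) left at 360 min in clone 7E at day 0 and 14.0% (SD 1.47) at day 4, and with 108.4% (SD 4.08) and 25.6% (SD 2.76) in clone 5F. The order of every 360 min library above every mock library was found for Nupr1 in clone 5F at day 0, and for 0.165% of all genes. In clone 7E at day 0 it was found for Nupr1 and Vldlr, and for 0.121% of all genes. With each library's own spike-ins it was found for the same genes, and for 0.181% of all genes in clone 5F and 0.132% in clone 7E.

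**Figure D4:**
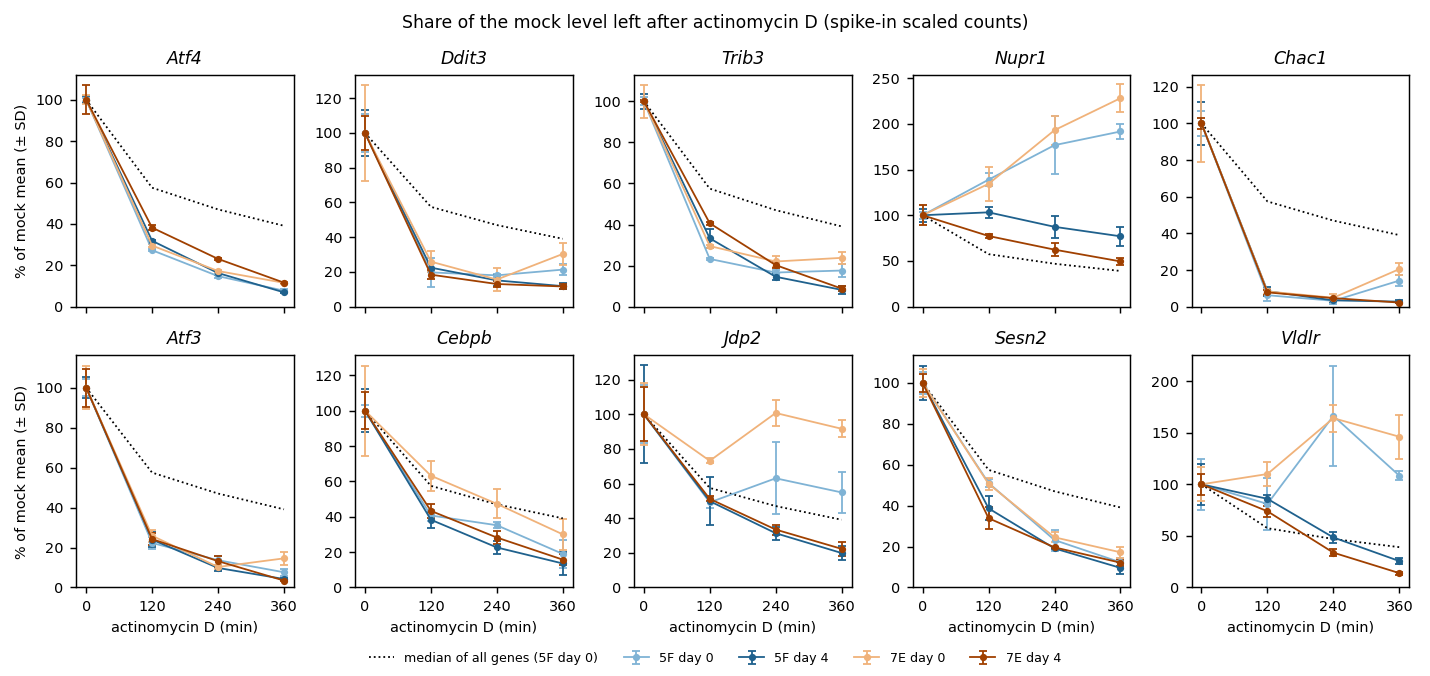
Share of the mock mean left after 0, 120, 240 and 360 min of actinomycin D for each gene (spike-in scaled counts, mean with SD of 3 libraries, or 2 at 120 min for clone 5F day 0). Pale lines are day 0, dark lines day 4, and the dotted line is the median of all genes in clone 5F at day 0. Nupr1 reaches 191.5% and 227.9% at 360 min at day 0 and falls at day 4.

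The slope after actinomycin D was lower at day 4 than at day 0 for 10 of the 10 genes in clone 5F (median -0.16 log2 per hour) and for 9 of the 10 in clone 7E (median -0.26), where Atf4 was at 0.01 (SE 0.04). Calls at an adjusted p under 0.05 were made for Nupr1 (-0.23, SE 0.03) and Vldlr (-0.40, SE 0.07) in clone 5F, and for Nupr1 (-0.37, SE 0.03), Vldlr (-0.59, SE 0.05) and Jdp2 (-0.36, SE 0.04) in clone 7E. Few genes were called at all. In clone 5F, 0.0614% of 17901 genes were called lower and 0.134% higher, and in clone 7E 0.488% of 17417 were called lower and 0.408% higher. Since the rule used these slopes, nothing is read from the counts. Jdp2, with half-lives of 165.2 min (148.2 to 186.6) in clone 5F labelled day 4 and 170.7 min (159.2 to 183.9) in clone 7E at day 4, had a slope in clone 7E at day 0 that gave no half-life. The half-lives of Trib3 went from 145.5 min (122.2 to 179.8) to 99.9 min (94.1 to 106.4) in clone 5F and from 181.0 min (149.9 to 228.4) to 104.3 min (101.7 to 107.1) in clone 7E. At 120 min, by contrast, more of Trib3 was left at day 4 than at day 0, with 33.3% (SD 4.67) against 23.3% in clone 5F and 40.6% (SD 0.85) against 29.5% (SD 0.70) in clone 7E. Sesn2 had half-lives of 106.6 to 138.1 min and Cebpb of 128.3 to 218.9 min over the 4 groups.

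The calls in clone 5F rested on all 3 replicates. When 1 replicate number was left out in turn, 0 of the 10 were called in clone 5F, and 3 of 10 were called in clone 7E in each case. Between clones at day 0, 0 of the 10 slopes were called in edgeR, DESeq2 or limma, where 0.0281% of 17766 genes were called higher and 0.00563% lower in edgeR. At an unadjusted p under 0.05, 2 of the 10 were higher and 0 lower in clone 7E, and over all 17766 genes 416 were higher and 397 lower. The genes were chosen with these slopes known, so that nothing is read from the counts of this paragraph. The 10 estimates lay between 0.05 and 0.13 log2 per hour.

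Some of the ATF4 target genes had a lower fitted slope at day 4 as well. A lower slope over all times does not by itself show a faster early loss, as for Trib3 above. In clone 5F, 8 of 41 had a lower slope by the test and 0 a higher one, with a median of -0.07 log2 per hour. These 8 were among 11 genes called lower over the whole table. In clone 7E, 26 of 41 had a lower slope and 0 a higher one, with a median of -0.11, among 85 called lower in all. Mthfd2, a mitochondrial folate enzyme, was at -0.16 (SE 0.03, edgeR adjusted p = 0.011) in clone 5F and at -0.29 (SE 0.03, edgeR adjusted p = 1.0e-06) in clone 7E. Gpt2, an alanine aminotransferase, was at -0.15 (SE 0.03) and -0.30 (SE 0.03), and Aldh18a1, which starts proline synthesis, was at -0.13 (SE 0.02) and -0.20 (SE 0.02). Slc1a4 was at -0.39 (SE 0.06, edgeR adjusted p = 2.7e-04) in clone 7E. With each library's own spike-ins, 0 of the 41 were called in clone 5F and 15 in clone 7E, all lower. Without replicate 1 or replicate 3, 0 were called in clone 5F, and 1 without replicate 2. In clone 7E the counts were 20, 19 and 13 without replicates 1, 3 and 2. Without the mock libraries they were 2 in clone 5F and 14 in clone 7E. In the lists of eIF2 kinases and phosphatase, ATF6 and XBP1 genes, immediate early genes and p53 targets, 0 genes were called in either clone.

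Relative binding to decay factors was listed by the authors for 8 of the 10 mRNAs, and Jdp2 and Vldlr are not among the 7240 mRNAs with values. CRAC maps RNA fragments crosslinked to a tagged protein. The authors pooled the libraries of each protein and gave its share of the sum over MTR4 (nuclear exosome), SKIV2L (cytoplasmic exosome) and XRN1 (5′ to 3′ decay), so that no replicate error can be had. XRN1 had the largest share for 5 of the 8, SKIV2L for 2 and MTR4 for 1, and over all mRNAs these were 38.1%, 26.5% and 35.4%. The XRN1 ratio was highest for Trib3, at 0.700 (percentile 98.3 of all mRNAs), and Sesn2 had 0.600 (percentile 93.4). The SKIV2L ratio was highest for Nupr1, at 0.578 (percentile 94.5), and Ddit3 had 0.515 (percentile 89.9), whereas Chac1 had 0.0858 (percentile 5.64). Cebpb was the mRNA with MTR4 as its largest share, at 0.460. Atf4 had 0.417 for XRN1, 0.372 for SKIV2L and 0.211 for MTR4.

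AVEN, an RNA-binding partner of the Ski complex, was given over the same sum. Atf4 had an AVEN ratio of 0.756, at percentile 97.7, against a median of 0.295 over all mRNAs. Atf3 had 0.451 (percentile 81.9) and Sesn2 0.312. The other 5 were below the median, from 0.0488 for Chac1 to 0.239 for Cebpb. The authors' alternative, which takes RNA levels into account, left the largest of the 3 shares as it was in 8 of 8 mRNAs.

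**Figure D5:**
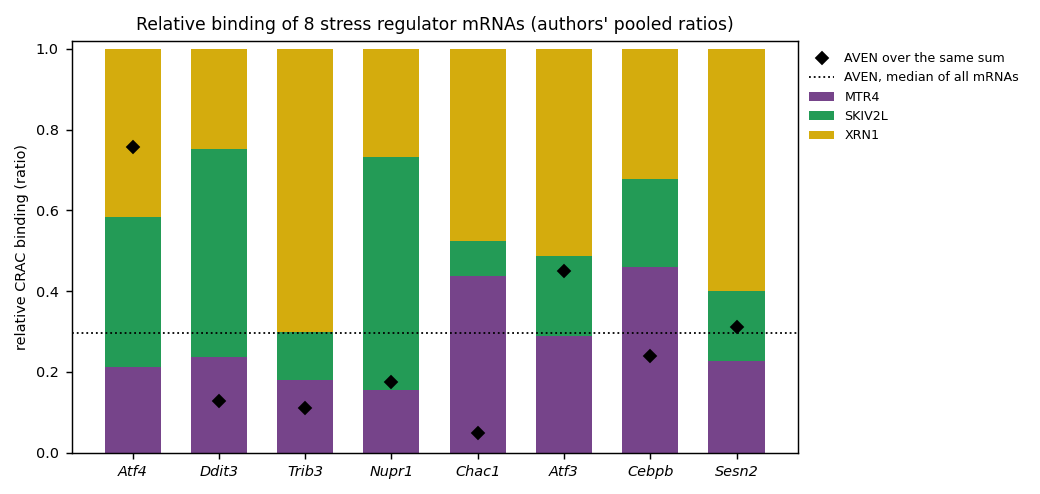
Relative CRAC binding of 8 mRNAs from the authors' pooled ratios. Bars stack the shares of MTR4, SKIV2L and XRN1, which sum to 1, diamonds are the AVEN ratio over the same sum, and the dotted line is its median over all mRNAs (0.295). Atf4 has the highest diamond, at 0.756.

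The genes most like Atf4 over the 12 mock libraries, by Pearson's r of log2(CPM + 1) among 10278 genes with a mean of at least 5 CPM, were Trib3 (0.99), Ptgs2, Eif3c, Gpt2 and Fam126a, the fifth with 0.99. Among those most like Ddit3 were Slc1a4, Cpeb1 and Chac1, each with 0.98. Both profiles are set by the 4 groups, so that such values describe the order of the groups. Among the other 9 genes, Vldlr and Nupr1 followed Atf4 most closely after Trib3, both with 0.98, and Sesn2 least, with 0.83.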

How the data were processed

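The authors aligned 50 nt reads of ribosomal RNA-depleted total RNA to GRCm38 with ERCC sequences using STAR, kept unique alignments and deposited raw counts per gene without strand. The deposited ratio of relative CRAC binding, its score corrected for RNA level, and the RPKM values behind that score come from pooled libraries of the authors. Columns with the authors' own fold changes, p-values and half-lives were not used, and 0 columns of counts were left without a sample.

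The members and gene lists were chosen with earlier results of these data known. Counts were analysed with edgeR 4.0.16 (quasi-likelihood test, filterByExpr, DESeq2 size factors, Benjamini-Hochberg threshold 0.05) in R 4.3.3. A mock fit held all 12 mock libraries. A decay fit tested the interaction of time with day or clone. SEs were derived from the F statistic. Size factors were set within each time point, and time points were scaled by 34 ERCC sequences with a mean over 50 counts (factors 1, 0.649, 0.531 and 0.438). Replicates are technical, so p-values measure only the spread between these libraries. Other list genes named are, per comparison, up to 3 with the largest change among those called with a mean of at least 5 CPM. Of 53380 genes, 53274 had a symbol in the Gencode M21 annotation, which also gave positions. DESeq2 1.42.0 and limma 3.58.1 served as alternatives, and the tests were tested on simulated data. In mock libraries, same-numbered replicates of the clones deviated together within a day (6 of 6 correlations over 0.1, from 0.23 to 0.53), and those of different days did not (0 of 12). The pairing comes from this check, not from the labels. The lowest chi-square per gene between replicates was 2.59. CRAC, ribosome profiling and other RNA-seq libraries were not analysed here. One gene among those most like Ddit3 is not reported here.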

Additional observations from a re-analysis of the deposited data

Results flagged for a closer look

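The day 4 change of the mock level differed between the clones, by the edgeR test of the difference itself (adjusted p under 0.05 over 17209 genes, 3 libraries per group), in 26 of 41 ATF4 targets, 2 of 16 ATF6 and XBP1 genes, 4 of 10 immediate early genes and 8 of 10 p53 targets. Over all genes that call was made for 6.65% upward and for 5.29% downward, and nothing is read from the 2 of 16. The lists were made with earlier results known, so that these counts are a description. The change was larger in clone 7E in the genes called, except in 1 p53 target, Sesn1, at -0.30, named after its values were seen. Those with the largest difference and a mean of at least 5 CPM follow. Among ATF4 targets, the change in clone 7E exceeded that in clone 5F by 1.11 for Stc2 (0.69 in clone 5F and 1.80 in clone 7E), by 0.87 for Ddit4 (0.02 and 0.89) and by 0.81 for Slc1a4 (1.00 and 1.81), on the log2 scale. Among immediate early genes it was larger by 0.97 for Dusp1 (0.11 and 1.08), by 0.72 for Jun (0.64 and 1.36) and by 0.56 for Btg2 (0.07 and 0.63). Among p53 targets it was larger by 0.84 for Cdkn1a (0.44 and 1.29), by 0.76 for Plk2 (0.29 and 1.06) and by 0.58 for Mdm2 (0.21 and 0.78). In the ATF6 and XBP1 list it was larger by 0.27 for Atf6 (0.17 and 0.44), and by 0.19 for Pdia6, which was at -0.30 in clone 5F and at -0.11 in clone 7E. These values are relative to the other genes of each library. With each library's own spike-ins the median of this difference over all genes fell by 1.03, and 0 ATF4 targets had a larger change in clone 7E. No group held 4 or more libraries, so no single library was checked as standing apart.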

How the results depend on the processing

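TMM, the replicate block, DESeq2 (mock levels) and both other filters kept the number of genes called in mock levels within 1.5 times. Own spike-ins did not: 15402 genes in clone 7E (270 higher, 15132 lower), 16022 between clones at day 4 (73 higher) and 14373 for the difference between clones (54 higher), and higher calls went from 52.5% to 29% of all calls in clone 5F, from 51.4% to 1.75% in clone 7E, from 49.9% to 20.1% and from 50.4% to 0.456% between clones at day 0 and day 4, and from 55.7% to 0.376% for the difference (slopes: 68.6% to 84.2% in clone 5F, 45.5% to 72.4% in clone 7E). There the log2 fold changes of called genes turned for Sesn2 in clone 7E (-0.70), between clones at day 4 for Atf4 (-0.26), Ddit3 (-0.35), Atf3 (-0.33), Cebpb (-0.31) and Sesn2 (-0.61), and in the difference between clones for Atf4 (-0.50), Ddit3 (-0.25), Trib3 (-0.17), Nupr1 (-0.20), Cebpb (-0.27) and Sesn2 (-0.75), and uncalled ones for Jdp2 in that difference (-0.49) and for Ddit3 (-0.10) and Cebpb (-0.04) between clones at day 0. Leaving out a replicate number gave 1682 to 3721 calls in clone 5F (1682 without replicate 1, 2325 without replicate 3), 4584 to 6197 in clone 7E, 4094 to 5323 and 4772 to 5972 between clones at day 0 and day 4, and 752 to 1446 for the difference (752 without replicate 1, 1347 without replicate 3).

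Slopes had 35 calls in clone 5F against 19 with own spike-ins, 10 with limma, 14 without mock libraries and 2 to 4 without a replicate. Clone 7E had 156 against 270 with DESeq2, 237 without mock libraries and 26 to 51 without a replicate. Clones at day 0 had 6 against 2 with own spike-ins, 37 with DESeq2, 23 without mock libraries and 0 without any replicate, from fewer libraries. The causes were not tested. Among the 10 genes, 18 of 30 slope differences moved by more than 1 SE without the mock libraries and all 34 half-lives did from mock and 120 min alone, which omits the later times. The order of 360 min over earlier libraries under own spike-ins or CPM was chosen after seeing the data.

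With the replicate block, calls were 3695, 6698, 6044, 6790 and 1930 for mock levels and 28, 116 and 7 for slopes. With the block within each day, chosen after seeing the data, they were 8039 and 8595 between clones at day 0 and day 4 and 4151 for the difference. Neither block changed the number of calls among the 10 genes. Low raw counts of Chac1, Ddit3 and Vldlr limit their shares left. With own spike-ins, 42 of 120 shares left moved by 1 SD or more. Among these, at 120 min in clone 7E at day 4, Atf4 was at 45.1% and Trib3 at 48.1%.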
